A study of Homo sapiens with 14 samples.

Results

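The regions described here are 3772 runs of GGAA repeats, from microsatellites of the human genome (hg38), at which none of 4 FLI1 peak lists holds a peak. They were chosen by the positions of those peaks, as all runs of 6 or more uninterrupted GGAA units on either strand (TTCC on the other strand), on the 22 autosomes and X, with no peak of any list within 250 bp. They make up 61.8% of the 6106 runs of that length. The other 2334 runs had a peak in at least 1 list (called bound runs below), 1392 of them in all 4 lists and 942 in 1 to 3. Runs were counted singly, though some are neighbours. Of the peak-free runs 1383 (36.7%) lay within 500 bp of another run of 4 or more units, and of the bound runs 954 (40.9%). The FLI1 lists chose the peak-free runs, so shares of runs with or without a peak are given as a description with no test. Only features that the rule did not use are compared by a test, apart from unit number, which the rule used as a minimum.

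The lists come from CUT&RUN, in which an antibody directs a nuclease to cut out the DNA next to its target, in TC-32, an established Ewing sarcoma cell line. All 14 libraries were made from wild-type, untreated cells. They are labelled as sets A and B, a division the labels do not explain. FLI1 was profiled in 2 replicates in each set, H3K27ac in 2 replicates in set A, H3K9me3 and H3K27me3 in 2 replicates each in set B, and an IgG control in 2 replicates in each set. No group without the fusion is among the samples, and nothing in the labels says that replicates were separate cultures, so a spread between replicates may be technical. The FLI1 lists held 29339 to 40590 peaks, covering 0.620% to 1.00% of the genome, and give no read totals.

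FLI1 is a transcription factor of the ETS family, whose members read the core GGAA. Ewing sarcoma cells carry a fusion of EWSR1 with the DNA-binding part of FLI1, and the antibody used recognises FLI1, so a peak can come from the fusion or from FLI1 itself. The fusion is known for binding GGAA units repeated in tandem, which the normal protein binds poorly, and for turning such repeats into enhancers. H3K27ac marks active enhancers and promoters, H3K27me3 is laid down by Polycomb complexes at repressed developmental genes, and H3K9me3 marks heterochromatin and silenced repeats.

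To show what a long run without a peak looks like, 6 of the peak-free runs are printed first, 5 of them among the 8 with the most units. Each sequence reads 5′ to 3′ on the strand that carries GGAA, with the uninterrupted run in capitals and 50 bp of flank on each side in lower case. The coordinates are those of the printed stretch on hg38.
39 units, intergenic, 131 kb from the start of CNTN6, chr3:961180-961435, minus strand: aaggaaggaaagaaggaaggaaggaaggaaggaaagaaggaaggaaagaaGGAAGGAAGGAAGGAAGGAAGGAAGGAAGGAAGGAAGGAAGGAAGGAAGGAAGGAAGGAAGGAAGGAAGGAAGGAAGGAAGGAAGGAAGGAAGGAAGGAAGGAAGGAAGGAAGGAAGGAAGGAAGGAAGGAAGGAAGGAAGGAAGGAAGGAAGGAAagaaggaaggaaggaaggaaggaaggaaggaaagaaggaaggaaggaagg
37 units, intron of ABCC4, chr13:95196534-95196781, plus strand: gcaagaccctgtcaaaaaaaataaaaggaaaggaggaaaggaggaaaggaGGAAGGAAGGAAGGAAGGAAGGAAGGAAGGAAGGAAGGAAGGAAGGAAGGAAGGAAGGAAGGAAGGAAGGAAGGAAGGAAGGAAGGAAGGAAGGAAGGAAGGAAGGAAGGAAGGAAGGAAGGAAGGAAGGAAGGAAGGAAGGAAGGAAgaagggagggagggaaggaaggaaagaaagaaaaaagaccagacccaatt
21 units, intron of EMSY, chr11:76494602-76494785, minus strand: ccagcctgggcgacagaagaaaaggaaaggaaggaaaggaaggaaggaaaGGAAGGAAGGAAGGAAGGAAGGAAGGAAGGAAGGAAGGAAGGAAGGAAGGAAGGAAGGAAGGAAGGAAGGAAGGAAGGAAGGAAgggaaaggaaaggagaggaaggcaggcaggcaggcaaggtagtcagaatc
20 units, intergenic, 5.42 kb from the start of CCL3, chr17:36095513-36095692, minus strand: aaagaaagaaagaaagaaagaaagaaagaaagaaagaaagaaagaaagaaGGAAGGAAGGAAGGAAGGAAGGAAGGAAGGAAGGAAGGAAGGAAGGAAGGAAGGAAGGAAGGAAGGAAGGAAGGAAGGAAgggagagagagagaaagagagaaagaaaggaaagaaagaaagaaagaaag
20 units, intron of NDC80, chr18:2614433-2614612, plus strand: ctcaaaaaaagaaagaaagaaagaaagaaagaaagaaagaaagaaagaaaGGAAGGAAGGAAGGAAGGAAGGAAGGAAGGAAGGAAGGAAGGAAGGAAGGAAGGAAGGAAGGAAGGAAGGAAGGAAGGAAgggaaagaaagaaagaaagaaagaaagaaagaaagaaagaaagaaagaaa
16 units, intron of ISM2, under H3K27me3, chr14:77497720-77497883, plus strand: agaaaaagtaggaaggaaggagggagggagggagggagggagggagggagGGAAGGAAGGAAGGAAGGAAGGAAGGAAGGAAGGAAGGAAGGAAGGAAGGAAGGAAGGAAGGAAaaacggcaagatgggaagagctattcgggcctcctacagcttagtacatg

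For contrast, the next 3 runs were bound in all 4 libraries and had the highest mean deposited fold over IgG of such runs.
10 units, intron of NTM, chr11:131976067-131976206, minus strand: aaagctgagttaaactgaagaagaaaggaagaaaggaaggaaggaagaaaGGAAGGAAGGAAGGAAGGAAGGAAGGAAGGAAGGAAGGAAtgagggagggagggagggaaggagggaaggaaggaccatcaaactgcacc
13 units, intron of ENSG00000290067, chr6:131383660-131383811, plus strand: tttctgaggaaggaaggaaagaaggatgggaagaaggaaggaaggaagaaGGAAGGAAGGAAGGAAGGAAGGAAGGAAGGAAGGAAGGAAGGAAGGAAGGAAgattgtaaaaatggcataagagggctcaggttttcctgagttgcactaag
16 units, intron of TMEM114, chr16:8576656-8576819, plus strand: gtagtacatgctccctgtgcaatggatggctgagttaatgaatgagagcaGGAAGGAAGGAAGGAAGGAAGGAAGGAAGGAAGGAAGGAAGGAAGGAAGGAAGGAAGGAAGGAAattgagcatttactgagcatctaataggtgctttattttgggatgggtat

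The 39-unit run near CNTN6, a neural cell adhesion gene, had more units than any bound run. It sits in a longer interrupted tract of 125 units, and the 100 bp on each side consisted of purines (A or G) throughout. Of the 31-base words within 250 bp of it, 11.8% occur once in the genome. The 37-unit run in ABCC4, which encodes a drug and nucleotide exporter, was of another kind: 98.0% of its flanking words were unique and 64.0% of its flanking bases were purines. Its nearest FLI1 peak in any list lay 1.1 kb away. The runs at CCL3 (a chemokine gene) and NDC80 (a kinetochore gene) continue on both sides into AGAA and other purine words, as the printed sequences show, and 92.5% and 84.5% of their flanking bases were purines. The bound run in TMEM114, a transmembrane protein gene, passes directly from the repeat into sequence with 51.5% purines. The bound run in NTM, a neural adhesion gene, had 10 units, and its deposited fold was 301 and 346 for the set A libraries and 114 and 67.0 for those of set B. A bound run of 35 units in an intron of SHROOM4, a cytoskeletal protein gene on X, had folds of 9.85, 12, 7.49 and 7.12 in the same order. A bound intergenic run of 32 units 7.81 kb from the start of MYO10, a myosin gene, had 46.9, 49.5, 56.3 and 25.7.

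Unit number differed between the classes but did not separate them. The peak-free runs had 6 to 39 units with a median of 9, and 1043 of them (27.7%) had exactly 6. Of the peak-free runs 1659 (44%) had 10 or more units, against 1662 (71.2%) of the bound runs, and 281 peak-free runs had 15 or more. The mean was 9.40 units in peak-free runs. Runs bound in set A replicates 1 and 2 had means of 11.7 and 11.7 units, and those bound in set B replicates 1 and 2 had means of 11.7 and 11.8. The 4 differences averaged -2.33 ± 0.0341 units (SD, n = 4 libraries). The rule sets the minimum of 6 units, and the size of this difference depends on it (-3.19 at a minimum of 5, -1.30 at 8). For this and the 8 other features compared in the same way below, the exact sign-flip permutation test over libraries gave a two-sided p of 0.13 (also 0.13 after Benjamini-Hochberg adjustment over the 9 results). That is 2 of 16 sign patterns, the smallest p that 4 libraries allow, so none of the 9 results could pass 0.05. The 4 libraries are set against the same peak-free runs, and 1392 runs are bound in all 4, so each SD reflects only how the bound sets differ and a direction shared by the libraries is no independent support.

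The share of runs without a peak fell as units were added, apart from a step up from 59.1% at 10 units to 62.7% at 11. Of all runs of 6 or more units, 33.5% and 35.5% had a peak in the set A libraries, and 28.3% and 24.7% in those of set B. Without a peak in any library were 81.5% of runs of 6 units (Wilson 95% interval 79.3 to 83.5), 64.9% of runs of 9, 50.9% of runs of 12 (46.9 to 55.0) and 34% of runs of 16 (28.4 to 40.1). Of the 215 runs with 17 or more units, 67 (31.2%, interval 25.3 to 37.6) had none. In the single libraries 37.7% and 33.5% (set A), 45.6% and 51.6% (set B) of those longest runs lacked a peak. Just below the chosen minimum, 86.1% of runs of 5 units (84.8 to 87.3) and 89.0% of runs of 4 lacked a peak. Among bound runs the median deposited fold over IgG (set A, then set B) was 12.8, 13.9, 11 and 11.1 at 6 or 7 units. At 16 or more units it was 22.4, 23.4, 17.8 and 17.5. Between these ends it rose at each step only in set A replicate 1. From 10 or 11 units to 14 or 15, the set B medians went from 15.5 to 15.2 in replicate 1 and from 15.3 to 13.5 in replicate 2. The Wilson intervals cover counting error only and treat neighbouring runs as independent, so they may be too narrow. The unit numbers are those of hg38, which may differ from those of the TC-32 genome at such variable repeats.

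**Figure D1:**
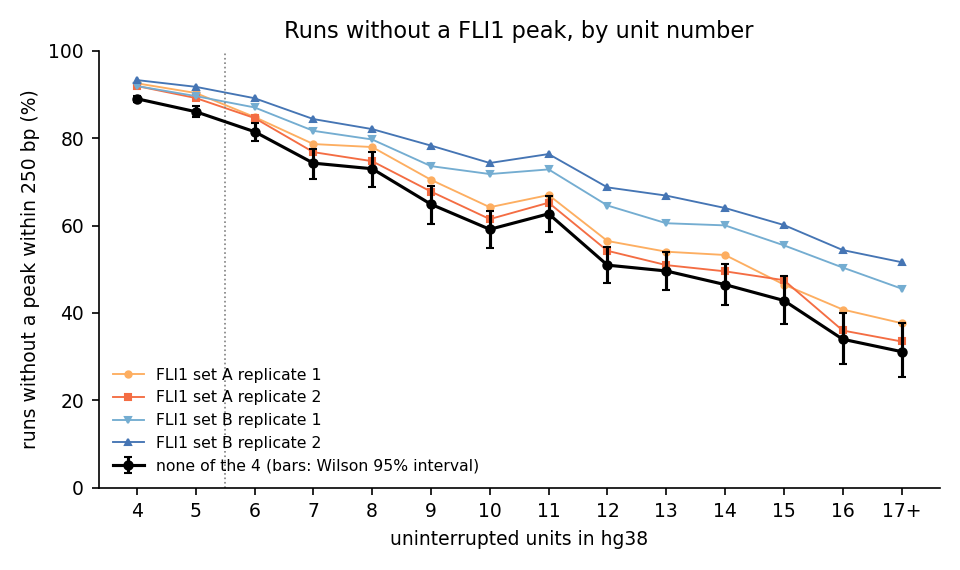
Share of runs without a FLI1 peak within 250 bp (y axis, percent) by number of uninterrupted units in hg38 (x axis, the last point pooling 17 or more), in each of the 4 libraries (coloured) and in none of them (black, bars are Wilson 95% intervals). The black line falls from 89.0% at 4 units to 31.2% at 17 or more, and the dotted line marks the minimum of 6 units.

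The 250-bp limit left few runs near its edge. Peaks overlapped or touched 1760 of the bound runs, and 574 had their nearest peak 1 to 250 bp away, 25 of them at over 200 bp. Just outside the limit, 13 peak-free runs had their nearest peak within 300 bp and 32 within 500 bp. The mean was 9.97 units in those 32 and 11.3 in the 574 just inside. For most peak-free runs the nearest listed peak was far away: the median distance to the nearest peak of any list was 42.7 kb (quartiles 14.7 and 138 kb), and 368 (9.76%) had one within 5 kb.

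The flanks of peak-free runs were richer in purines. On the strand that reads GGAA, 78.3% of the bases in the 100 bp on each side were A or G. In runs bound in the 4 libraries the means were 72.1% and 72.1% (set A replicates 1 and 2) and 72.2% and 71.5% (set B). Peak-free runs were higher by 6.30 ± 0.301 percentage points (SD, n = 4). Most of the excess was adenine, which made up 46% of flanking bases in peak-free and 40.9% in bound runs, with guanine at 32.3% and 31.6%. It was larger on the 3′ side, where the purine share was 77.3% against 69.5%, than on the 5′ side, where it was 79.2% against 75.4%, a contrast between sides that was not tested. The word directly 3′ of the run was AGAA in 23.7% of peak-free runs (Wilson 95% interval 22.3 to 25.1), in 15.6% of bound runs (14.2 to 17.2) and in 20.6% of all runs. GAAA stood there in 10.3%, 7.11% and 9.07%. These words were read on the GGAA strand only, and a word is a description of the sequence, not a binding site.

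**Figure D2:**
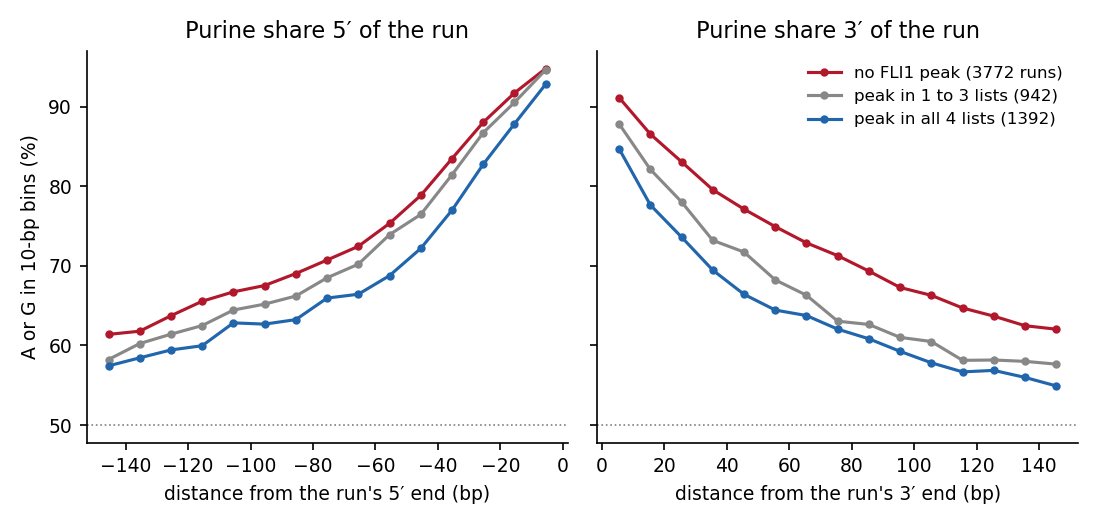
Share of A or G (y axis, percent, in bins of 10 bp) against distance from the run's 5′ end (left) and 3′ end (right), on the GGAA strand, for runs without a FLI1 peak (red), with a peak in 1 to 3 lists (grey) and in all 4 (blue). At 41 to 50 bp on the 3′ side the shares are 77.1%, 71.8% and 66.4%, and at 91 to 100 bp 67.3%, 61.0% and 59.3%.

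The same difference can be read the other way round, as the share without a peak by purine share. This uses the same runs and lists and is no further support. Of runs with under 60% flanking purines 42.4% (236 of 557, Wilson 95% interval 38.3 to 46.5) had no peak, against 79.7% (676 of 848, interval 76.9 to 82.3) of runs with 90% or more. Over all runs of 6 or more units the share was 61.8%. In the single libraries these shares were 48.3%, 44.2%, 53.7% and 56.9% in the low bin, and 83.1%, 82.8%, 85.3% and 88.6% in the high bin. As 1392 runs are bound in all 4 libraries, the order shared by the libraries is no independent support. Mean unit number was 11.2 in the low and 9.21 in the high bin, so the share was also read at fixed unit number. Of runs with 16 or more units, 21.1% (15 of 71) had no peak at under 60% purines and 69.0% (20 of 29, interval 50.8 to 82.7) at 90% or more. For runs of 6 or 7 units the same bins held 68.5% and 83.8%. The bins between them, from 60% to 90% purines, were not evenly graded. They held 28.0%, 24.3% and 56.3% at 16 or more units, and 79.8%, 78.0% and 79.9% at 6 or 7 units.

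Flanking sequence that occurs more than once in the genome moved with the purine share. The mean share of unique 31-base words within 250 bp was 81.4% in the bin with the fewest purines and 57.9% in the bin with the most. In peak-free runs it was 68.4%, and in bound runs 76.3% and 76.3% (set A) and 78.0% and 78.5% (set B). The difference was -8.86 ± 1.16 percentage points (SD, n = 4). Without a peak were 77.6% of runs with under 25% unique words and 51.1% of runs with 90% or more. Among runs of 12 or more units with at least 90% unique flanks, 27% (94 of 348) had no peak at under 70% purines, 30.3% (54 of 178) at 70% to 80%, and 54.2% (45 of 83) at 80% or more. Restricted to runs with at least 90% unique flanks, the purine difference between peak-free and bound runs was 4.69 percentage points, and the difference in units was -2.70. The part that read placement has in the lack of peaks was not tested, since the lists hold no reads.

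**Figure D3:**
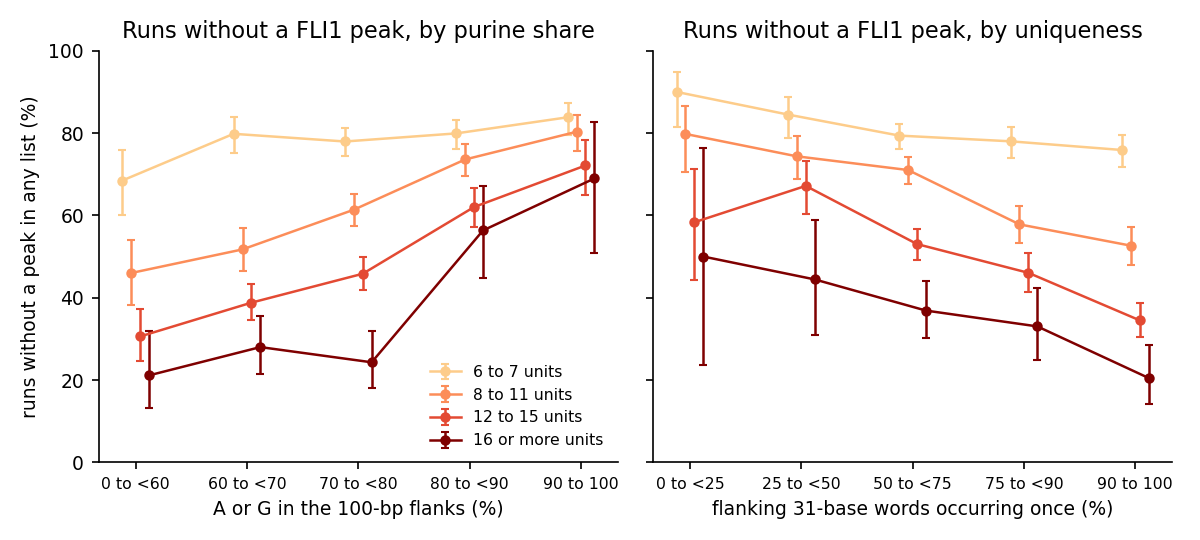
Share of runs without a FLI1 peak in any list (y axis, percent, bars are Wilson 95% intervals) by purine share of the 100-bp flanks (left) and by share of flanking 31-base words that occur once in the genome (right), with 1 line for each class of unit number. At 16 or more units the share goes from 21.1% to 69.0% across the purine bins and from 5 of 10 runs to 20.5% across the uniqueness bins.

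The number of further ETS cores near the run did not order the classes the same way at every window. Within 250 bp on both sides, outside the run itself, peak-free runs had 12.3 GGAA cores on either strand, and runs bound in the 4 libraries 11.7, 11.5, 11.8 and 11.7. The difference was 0.651 ± 0.126 cores (SD, n = 4), but within 100 bp it was -0.288. Counted as interrupted tracts, joined over gaps of at most 20 bp, peak-free runs lay in tracts of 12.3 units on average and bound runs in tracts of 15.1. These tracts include the run itself, with means of 9.40 and 11.6 units, and were followed for at most 250 bp on each side. Much of their difference is thus the difference in units given above. The unbroken stretch of purines around the run, which also includes it, had a median of 107 bp in peak-free runs and 98 bp in bound runs. By that length the share without a peak was highest at both ends, at 73.1% under 40 bp, where runs had 6.56 units on average, and 72.8% at 150 bp or more, with 10.4 units.

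Listed H3K27ac regions were nearly absent around the peak-free runs. Within 1 kb, a region of H3K27ac lay near 11 of them (0.292%) in replicate 1 and 14 (0.371%) in replicate 2, against 185 (7.93%) and 321 (13.8%) of bound runs. Most of the latter were bound in all 4 libraries (175 and 303, or 12.6% and 21.8% of that class), and runs bound in 1 to 3 had H3K27ac in 10 (1.06%) and 18 (1.91%) cases. Over all runs of 6 or more units these shares were 3.21% and 5.49%. The regions covered 0.0525% and 0.0790% of the bases within 1 kb of peak-free runs, below the 0.195% and 0.301% that the lists cover of the genome. Averaged over both replicates this was 0.0657%, against 2.94% and 2.80% around runs bound in set A and 3.49% and 3.92% around those bound in set B. The difference was -3.22 ± 0.515 percentage points (SD, n = 4). H3K27ac shares its IgG controls with the FLI1 libraries of set A, where the differences were -2.87 and -2.73, and not with those of set B, where they were -3.42 and -3.85. The part of the shared controls was not tested. No peak-free run itself overlapped an H3K27ac region in replicate 1, which allows a share of up to 0.0795% (3 counts of 3772), and 1 did in replicate 2, against 0.229% and 0.508% of all runs.

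Both replicates had H3K27ac within 1 kb of 5 peak-free runs (0.133%, against 2.39% of all runs), and each of these also had a FLI1 peak beyond the 250-bp limit, at 0.299 to 1.1 kb. They lay in introns of LAX1 (a lymphocyte adaptor gene, 14 units), RNF216 (a ubiquitin ligase gene, 7 units), WBP1L (7 units) and LINC00649 (6 units), and in intergenic sequence 165 kb from CSNK1G3 (a casein kinase gene, 6 units). The H3K27ac regions covered 37.5% and 24.2% of the bases near the RNF216 run and 24.3% and 35.6% near the CSNK1G3 run. At the other 3 they covered 5.13% to 13.9% in replicate 1 and 5.52% to 25.7% in replicate 2.

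H3K27me3 was found near a larger share of the peak-free than of the bound runs, though few had it. It lay within 1 kb of 159 (4.22%) and 105 (2.78%) peak-free runs in the 2 replicates, and of 24 (1.03%) and 20 (0.857%) bound runs. Over all runs the shares were 3.0% and 2.05%. Its regions covered 2.21% and 1.29% of the bases near peak-free runs, above the genome's 1.68% and 1.08%, and 0.546% and 0.385% near bound runs. With replicates averaged, the level was 1.75% near peak-free runs and 0.464%, 0.420%, 0.583% and 0.517% near those bound in each library. Peak-free runs were higher by 1.26 ± 0.0700 percentage points (SD, n = 4). The repressive marks share IgG controls with the FLI1 libraries of set B, and the part of these controls was not tested.

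The peak-free runs near H3K27me3 regions were closer to protein-coding starts than the others. Both replicates placed a region within 1 kb of 93 of them (2.47%, against 1.83% of all runs), and 17.2% of those lay within 5 kb of the start of a protein-coding transcript, with a median distance of 19.5 kb. For the other 3679 these values were 7.12% and 63.5 kb. Without a count for all its runs as a comparison, chromosome 22 held 8 of the 93, which is 17.8% of its 45 peak-free runs. The longest such runs that themselves lay in regions of both replicates were the 16-unit run printed above in ISM2, which encodes a secreted protein of the isthmin family, a 15-unit run 22.1 kb from KCNK3, a potassium channel gene, and a 15-unit run in LINC01234. The protein-coding start nearest to the LINC01234 run was that of the homeobox gene LHX5, 202 kb away. In ISM2 the regions covered 85.9% and 84.6% of the bases within 1 kb, and at KCNK3 100% in both replicates. At LINC01234 they covered 100% and 89.1%. The run in ISM2 had 71.5% purines in its flanks and 86.4% unique words, and its nearest FLI1 peak was 26.7 kb away.

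H3K9me3 gave an order that depended on the distance from the run. Within 1 kb it lay near 172 (4.56%) and 114 (3.02%) peak-free runs and near 110 (4.71%) and 53 (2.27%) bound runs, with 4.62% and 2.74% over all runs, so the counts of runs did not differ in the same direction in the 2 replicates. The regions covered 2.06% and 1.47% of the bases near peak-free runs, close to the genome's 2.05% and 1.33%. With replicates averaged, this was 1.76% near peak-free runs and 1.15%, 1.26%, 1.04% and 1.08% near the bound runs of each library. Peak-free runs were higher by 0.631 ± 0.0983 percentage points (SD, n = 4). Measured within 5 kb instead, the order turned: 1.69% of bases were covered near peak-free and 3.94% near bound runs, a difference of -2.25 percentage points. A region lay within 5 kb of 11.2% and 7.34% of peak-free runs, and of 33.3% and 23.3% of the runs bound in all 4 libraries, against 17% and 11.3% of all runs.

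The profile by distance shows the turn. At the run itself, 2.07% and 1.51% of the peak-free runs were under H3K9me3, and 0.934% and 0.575% of those bound in all 4 libraries. At 5 kb on the 5′ side, peak-free runs stood at 2.23% and 1.46%, and runs bound in all 4 libraries at 11.4% and 8.98%. On the 3′ side at 5 kb, the values were 1.75% and 1.22% against 8.76% and 5.89%. Runs bound in 1 to 3 libraries had no such rise, with 1.59% and 1.17% at the run and 1.80% and 0.849% at 5 kb on the 5′ side. The level around peak-free runs thus stayed near that of the genome at these distances, and the runs bound in all 4 libraries had a dip at the run between higher shoulders.

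**Figure D4:**
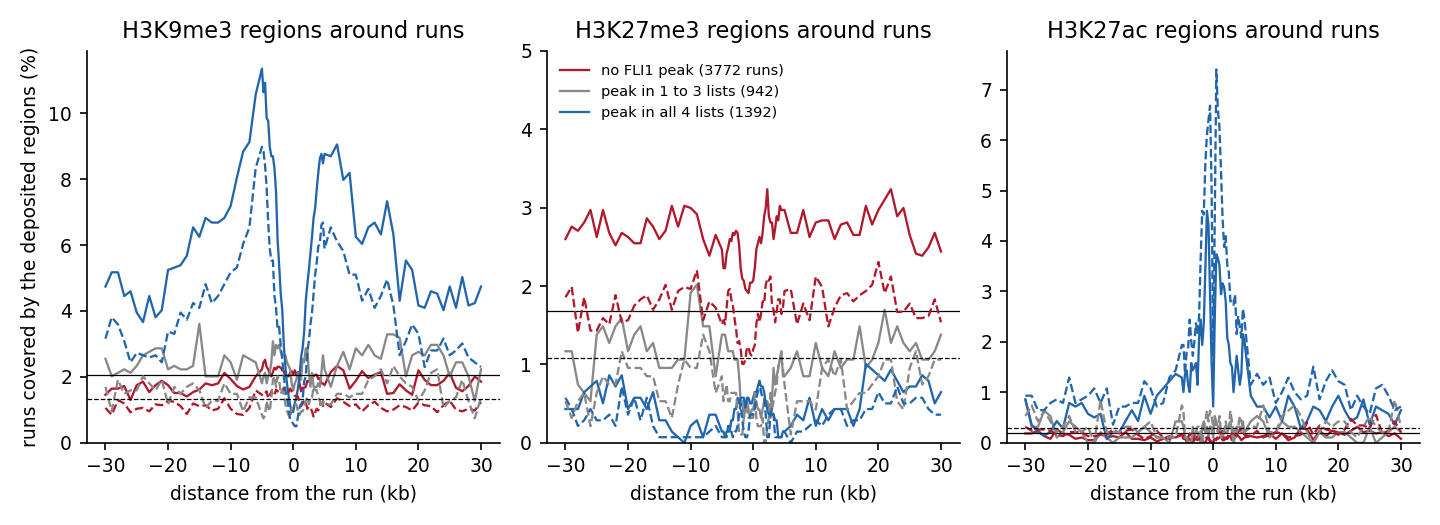
Share of runs covered by the deposited regions (y axis, percent) at each distance from the run (x axis, kb, negative on the 5′ side) for H3K9me3, H3K27me3 and H3K27ac, with replicate 1 solid, replicate 2 dashed, and the share of the genome that each list covers as thin black lines (red, no FLI1 peak; grey, peak in 1 to 3 lists; blue, in all 4). Red stays near the genome's line for H3K9me3 and, at the run, lies at 2.07% and 1.19% for H3K27me3 against 0.575% and 0.359% for blue, and blue has H3K9me3 shoulders of 11.4% and 8.98% at 5 kb on the 5′ side.

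Peak-free runs with H3K9me3 of both replicates within 1 kb numbered 109 (2.89%, against 2.47% of all runs). They too were nearer to protein-coding starts, at a median of 43.4 kb against 63.3 kb for the other peak-free runs. Within 5 kb of a start lay 8.26% of them and 7.34% of the others. The longest that lay inside regions of both were an 18-unit run in SLCO5A1-AS1 and a 16-unit run in SNTG1, a syntrophin gene, both on chromosome 8, and a 16-unit run in CAMTA1, a calmodulin-binding transcription factor gene. The regions covered 100% of the bases within 1 kb of the SLCO5A1-AS1 run in both replicates, 76.6% and 79.9% at SNTG1, and 45.2% and 49.9% at CAMTA1. At the CAMTA1 run 14.5% of flanking words were unique and 46% of flanking bases were purines, a low value for a peak-free run. The highest shares of peak-free runs with the mark were on chromosome 21 (5 of 71, 7.04%) and chromosome 19 (9 of 129, 6.98%). Bound runs with the mark were not counted by chromosome, so these few runs show no trait particular to peak-free runs. Both repressive marks lay within 1 kb of 7 peak-free runs (0.186%, against 0.115% of all runs), counting regions of either replicate. No region of any of the 6 histone mark lists lay within 1 kb of 3411 peak-free runs (90.4%, Wilson 95% interval 89.4 to 91.3), against 1836 bound runs (78.7%, 77.0 to 80.3). Of all runs 14.1% had at least 1 such region. The lists cannot show that a mark is absent where they hold no region.

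By position, peak-free runs were close to all runs, and a slightly lower share of them than of bound runs lay near protein-coding starts. Of the peak-free runs 7.37% lay within 5 kb of a protein-coding start, against 9.45%, 9.17%, 9.38% and 9.66% of the runs bound in each library and 8.01% of all runs. The difference was -2.04 ± 0.203 percentage points (SD, n = 4). The share without a peak was 56.9% within 5 kb of a start (Wilson 95% interval 52.4 to 61.2), between 60.3% and 61.9% in the 3 bins from 5 to 200 kb, and 65.9% beyond 200 kb (63.5 to 68.3). Inside the body of an annotated gene lay 50.1% of peak-free runs, against 53.4%, 53.3%, 55.0% and 54.9% of those bound in each library and 51.2% of all runs, a difference of -4.04 ± 0.935 percentage points (SD, n = 4). The 2 strands held 1865 and 1907 of them.

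Closer still, 38 peak-free runs (1.01%, against 1.31% of all runs) had such a start within 1 kb. The 5 with the most units were at IZUMO3, a sperm protein gene (16 units, 424 bp from the start), ISM2 (16 units, 983 bp), WWOX, a tumour suppressor gene at a fragile site (15 units, 930 bp), CPLX2, a complexin gene of synapses (14 units, 987 bp), and C5AR2, a complement receptor gene (14 units, 625 bp). Of these 5, ISM2 alone had a histone mark region within 1 kb. The WWOX run had 90.9% unique flanks and a FLI1 peak 0.888 kb away. At IZUMO3 the nearest FLI1 peak was 869 kb away, the flanks had 85.0% purines, and 70.9% of flanking words were unique.

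Across chromosomes the share of runs without a peak lay between 56.0% on chromosome 13 and 81.6% on chromosome 21 (71 of 87, Wilson 95% interval 72.2 to 88.4), with X at 69.3% and chromosome 18 at 68.0%. The single libraries gave 82.8%, 81.6%, 89.7% and 90.8% for chromosome 21. Its runs also had the lowest mean share of unique flanking words of any chromosome, 58.6%, and that of X was 64.5%. The shares did not follow uniqueness on every chromosome: chromosome 22 had 59.8% unique words with 59.2% of runs without a peak, and chromosome 18 had 73.7% unique words. Among runs with at least 90% unique flanks, 58.3% of 12 lacked a peak on chromosome 21 and 52.9% of 68 on X, against 51.1% over all chromosomes.

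**Figure D5:**
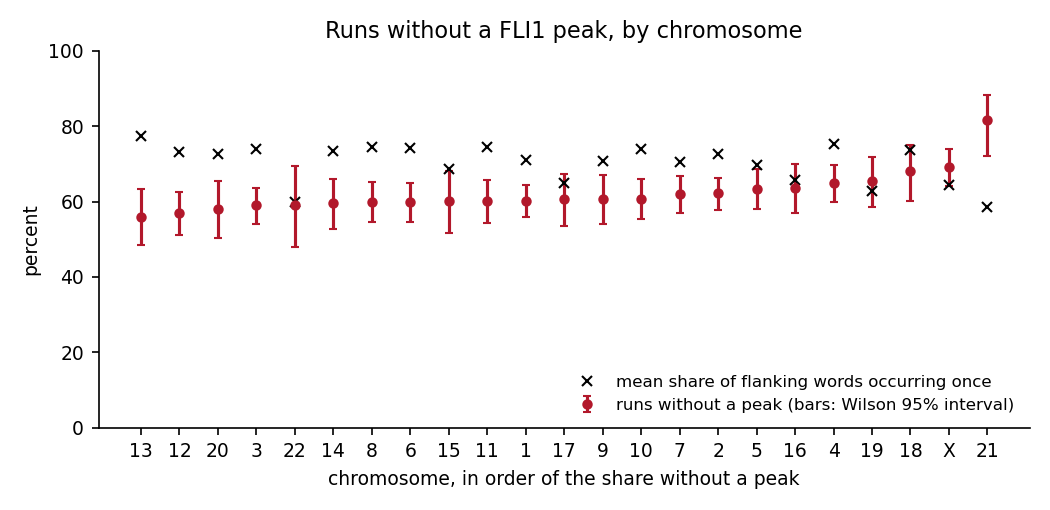
Share of runs of 6 or more units without a FLI1 peak in any list (red, percent, bars are Wilson 95% intervals) and mean share of flanking 31-base words occurring once in the genome (black crosses, percent), by chromosome (x axis, in order of the red value). The red values go from 56.0% on chromosome 13 to 81.6% on chromosome 21, where the cross is at 58.6%.

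Around genes reported as targets of the fusion, few long runs were without a peak. The 24 listed genes had 53 runs of 6 or more units inside them or within 100 kb, at 21 of the genes, and 9 of these runs (17%, Wilson 95% interval 9.20 to 29.2) had no peak, against 61.8% of all runs. These shares were not matched for unit number, with which the share without a peak falls (81.5% at 6 units, 50.9% at 12). The list was drawn up from known targets, so it is not independent evidence of where FLI1 binds. Near EGR2, a zinc finger factor gene, runs of 14 and 10 units had no peak and another of 10 units did. Around PRKCB, which encodes a protein kinase C, runs of 16 and 11 units had none and 6 runs of 8 to 16 units were bound. SOX6, a SOX factor gene, had a 16-unit run without a peak beside a bound run of 16 units and 4 others of 10 to 15. PAX7, a paired-box factor gene, had a peak-free run of 13 units and 5 bound ones, of 6 to 18. LIPI, a lipase gene, had a peak-free run of 7 and a bound run of 11. For SOX2, a stem cell factor gene (13 units), and VRK1, a kinase gene (11 units), the only run of 6 or more units had no peak. At NR0B1, CAV1 and NKX2-2, with 3, 4 and 2 runs, all runs were bound, the shortest having 6 units.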

How the data were processed

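CUT&RUN peak lists of 10 TC-32 libraries (4 FLI1, 2 each of H3K27ac, H3K9me3 and H3K27me3) were used. The 4 IgG libraries and the reads were not analysed here. Per the file names, the authors made 1 list per library, with the like-numbered IgG of its set as control and duplicates removed, as narrow peaks for FLI1 and H3K27ac and broad ones for the other marks. The submitters' processing notes name cutadapt 4.4, Bowtie2, Picard 2.17.11, MACS2 2.1.1 and the build GRCh38/hg38, without roles. Each deposited peak has the authors' integer score, a fold over IgG (a ratio), −log10 p and −log10 q. Fold served only to describe bound runs and −log10 q to filter in 1 alternative, while the score was not used. The lists give no read totals, so depth is unknown, and lists of different depth differ in length.

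Runs were found in the hg38 sequence. Starts and genes came from GENCODE release 44. Coverage is the share of bases within 1 kb of a run inside a list's regions. Words of 31 bases were counted over the whole genome on both strands. For each of 9 results, peak-free runs were compared with the runs bound in each FLI1 library (exact sign-flip permutation, Benjamini-Hochberg adjusted). The regions named were the 8 peak-free runs with the most units, up to 5 with H3K27ac of both replicates within 1 kb, the 3 longest lying in each repressive mark, up to 5 within 1 kb of a start, and 6 bound contrasts, of which 1 is not reported here. The runs, lists and gene list were chosen with earlier results of these data known. The scripts were tested on simulated data. Alternatives changed the unit minimum, peak distance, peak significance, counting of neighbouring runs, distance from starts, flank uniqueness, window sizes and the libraries used. Python 3.11.15, numpy 2.4.6, pandas 2.3.3, scipy 1.17.1, numba 0.67.0 and matplotlib 3.10.9 were used.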

Additional observations from a re-analysis of the deposited data

How the results depend on the processing

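Of 142 recomputed values over the 9 results, 139 kept their direction. H3K9me3 coverage turned to -2.25 percentage points within 5 kb and to -1.72 between 1 and 100 kb, the latter chosen after seeing the data, and the profile by distance shows the shoulders these windows include. The difference in ETS cores turned to -0.288 within 100 bp, where the cause was not tested. It also moved by over 1.5 times to 0.219 with flanks at least 50% unique (exact permutation p = 0.25, so the libraries no longer shared 1 sign), 0.382 with 5 or more units, 0.375 with 12 or more and 1.26 with peaks overlapping the run. Other values that moved so far were the units (-1.30 with 8 or more units), the share near a start (-0.805 within 1 kb), unique flanks (-4.69 with flanks at least 50% unique), H3K9me3 (1.1 with 12 or more units, 0.977 as runs overlapping) and H3K27ac (-1.55 within 250 bp, -2.12 within 5 kb, -1.14 as runs overlapping, -0.371 between 1 and 100 kb). Leaving out each FLI1 library in turn gave ranges of -2.33 to -2.25 units, -2.22 to -1.96 percentage points near a start, 0.595 to 0.726 for H3K9me3, 1.16 to 1.28 for H3K27me3, -3.38 to -3.01 for H3K27ac, -9.25 to -8.41 for unique flanks, 0.518 to 0.727 cores, -4.51 to -3.67 in genes and 6.12 to 6.34 for purines. The settings with 12 or more units, with flanks at least 90% unique or under 70% purine, and between 1 and 100 kb were added after seeing the data. No paired analysis was possible because no test compares groups of libraries. Each value sets the same peak-free runs, defined by all 4 lists, against the runs bound in 1 library. A peak list cannot show that FLI1 is absent from a run without a peak, and with 4 libraries no result could reach a p under 2 of 16 sign patterns.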
